A study of Mus musculus with 13 samples.

Results

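CREBH, the product of Creb3l3, belongs to a small family of transcription factors anchored in the membrane of the endoplasmic reticulum (ER), and the genes described are this family together with 4 secreted liver proteins tied to CREBH. The 8 listed genes were Creb3l3, its relatives Creb3, Creb3l1 and Creb3l2, the apolipoprotein genes Apoa4 and Apoa5, and the pentraxin genes Apcs and Crp. Each was read through the array feature annotated to that gene alone with the highest mean over the 13 livers. Of the 8 genes, 7 had such a feature, out of 18820 genes measured this way in the series. Creb3 had only a feature annotated to both Gba2 and Creb3, so no value was assigned to it.

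The livers came from C57BL/6J mice of 2 genotypes at 2 ages, 1 array per liver. Wild-type mice numbered 3 at the age of 3 weeks and 3 at the age of 9 weeks. Mice with floxed exon 6 of Sel1l and Cre recombinase under the albumin promoter (LiSel1lKO, here Sel1L-deficient) numbered 4 and 3 at these ages. Cre from this promoter acts mainly in hepatocytes, and loss of the gene in other cells of the liver was not measured. All mice were fasted for 5 to 6 hours in the morning. The labels do not say whether the wild-type mice carried the floxed allele, and give no sex, litter or diet.

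CREBH is made mainly in hepatocytes and is held in the ER membrane until it moves to the Golgi, where the site-1 and site-2 proteases release its N-terminal part to enter the nucleus. There it activates genes of fasting lipid metabolism, among them the hormone gene Fgf21 and the apolipoprotein genes Apoa4 and Apoa5, and it was first described as an activator of the pentraxin genes Apcs and Crp during ER stress. Sel1L is the adaptor of Hrd1, the ubiquitin ligase of ER-associated degradation, and the series title places CREBH between this pathway and FGF21. The arrays measured transcripts only, so neither the amount of CREBH protein nor its cleavage was observed.

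Values are RMA log2 expression, on which 1 unit is a 2-fold difference, and they compare livers for the same feature, not levels of different genes. The array medians lay between 3.725 and 3.811 and livers of 1 group differed by a median SD of 0.148 to 0.156 per feature. Over features, arrays correlated at 0.9828 to 0.9884 inside a group and at 0.9761 to 0.9871 across groups. Sel1l ranged from 8.70 to 8.94 in the 6 wild-type livers and from 7.10 to 8.42 in the 7 Sel1L-deficient livers. Deficient minus wild type, this was -1.21 ± 0.26 at 3 weeks (log2, SE, adjusted p = 0.391) and -1.02 ± 0.28 at 9 weeks (adjusted p = 0.108), with no overlap between genotypes at either age. The 12 measured hepatocyte markers averaged between 11.98 and 12.16 in every liver, and in bulk tissue fewer cells of a type and less RNA per cell cannot be told apart. The 11 Kupffer cell and macrophage markers averaged 7.99 to 8.09 in wild type and 7.52 to 7.81 in Sel1L-deficient liver at 3 weeks, with all 11 below 0 in the difference. No marker of 9 cell-type lists passed the threshold in a genotype comparison, beside 0% of all features at 3 weeks and 1.52% at 9 weeks. The part of these cells in the 3-week results was not tested.

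Among the 7 measured genes, Apcs changed with genotype at 9 weeks and with age in wild type, and none of the other 6 passed the threshold in any comparison (adjusted p under 0.05 over all 35556 features). At 3 weeks 0 of the 7 passed, as did 0% of all features. At 9 weeks 1 of the 7 rose in Sel1L-deficient liver and 0 fell, beside 1.52% of all features in either direction and 1.03% that rose. The plot of values by liver shows the separate 9-week wild-type group of Apcs and the wide range of Apoa4.

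**Figure D1:**
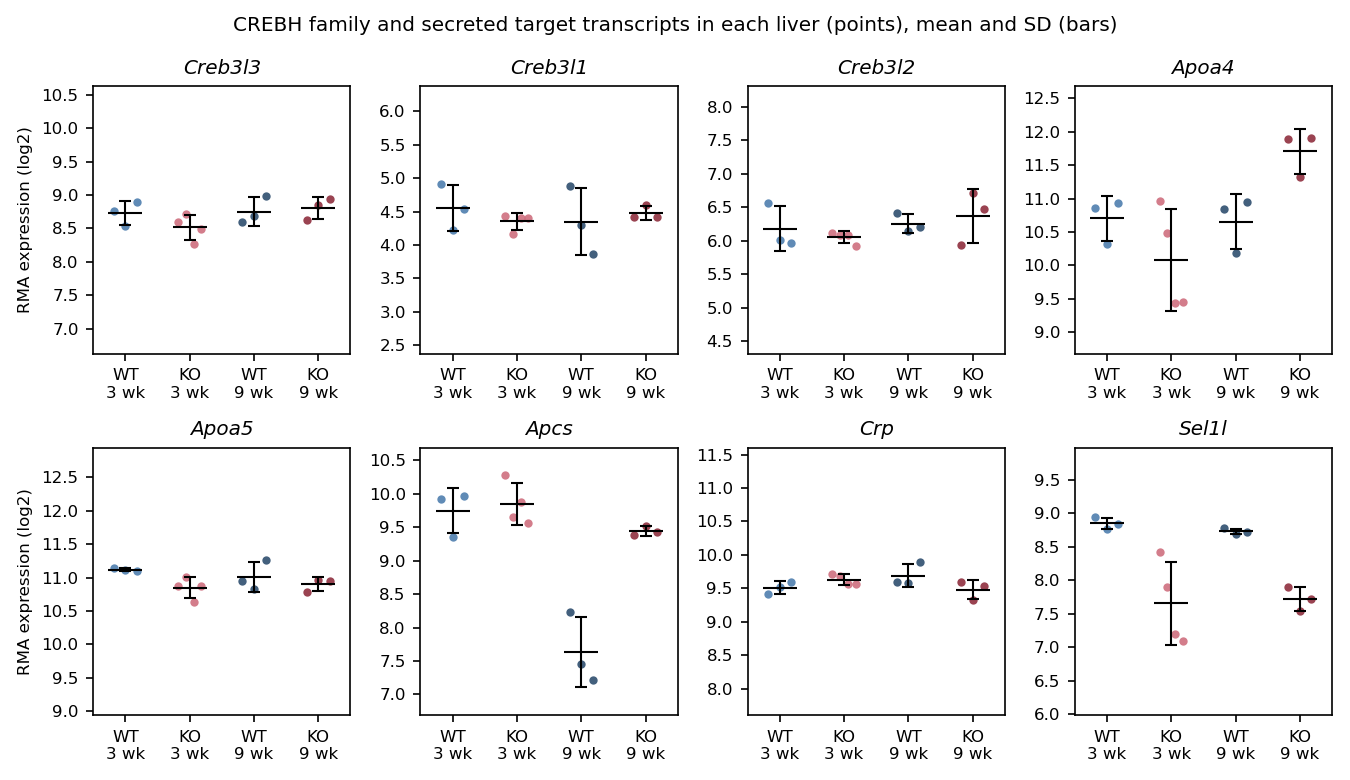
RMA log2 expression (vertical axes, each spanning 4 log2 units at its own level) of 7 genes and Sel1l by genotype and age. Points are single livers (n = 3, 4, 3 and 3 from left to right), horizontal bars are means and error bars are SD. Apcs sits between 7.22 and 8.23 in 9-week wild-type livers and at 9.36 or above in all others, and Apoa4 reaches 11.32 to 11.91 only in 9-week Sel1L-deficient livers.

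The CREBH gene itself did not differ between genotypes beyond the threshold at either age. The 3-week livers had Creb3l3 at 8.76, 8.54 and 8.90 (wild type) and 8.59, 8.71, 8.27 and 8.49 (Sel1L-deficient). The 9-week livers had 8.59, 8.68 and 8.99 (wild type) and 8.62, 8.85 and 8.94 (Sel1L-deficient). The groups overlapped at both ages, and all 13 livers lay within 0.72 log2 units. The log2 difference was -0.22 ± 0.14 (SE; 95% interval -0.53 to 0.08, adjusted p = 0.763) at 3 weeks and 0.05 ± 0.15 (-0.28 to 0.38, adjusted p = 0.93) at 9 weeks. In order of mean level, Sel1L-deficient liver at 3 weeks was lowest (8.51 ± 0.19, SD, n = 4), followed by 3-week wild type (8.74 ± 0.18, n = 3), 9-week wild type (8.75 ± 0.21, n = 3) and 9-week Sel1L-deficient liver (8.80 ± 0.17, n = 3). The 3 upper groups lay within 1 SD of their neighbours.

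The stretch before 1 of the 2 listed start sites of Creb3l3 is shown because it holds letters of both ER stress and nuclear receptor elements. The stretch is the 250 bases before the first start site that RefSeq lists (GRCm38.p6, chr10:81092592-81092841, minus strand), read 5′ to 3′ with motif matches in capitals.
Creb3l3: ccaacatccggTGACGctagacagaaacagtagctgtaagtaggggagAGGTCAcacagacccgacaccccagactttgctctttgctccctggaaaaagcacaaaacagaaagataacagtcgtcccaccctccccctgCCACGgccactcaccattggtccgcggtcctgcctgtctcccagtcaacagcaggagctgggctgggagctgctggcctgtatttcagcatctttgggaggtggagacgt
It held TGACG, the core of the cyclic AMP response element (CRE) that factors of this family recognise, 239 to 235 bases before the start. AGGTCA, the core bound by nuclear receptors, lay 202 to 197 bases before it and CCACG, the 3′ end of the ER stress response element, 110 to 106 bases before it. Among 32851 mouse promoter windows of 250 bases, 17.8% held TGACG, 14% held AGGTCA and 28.3% held CCACG on either strand. A second start site that RefSeq lists for Creb3l3 (chr10:81098873-81099122, minus strand) had 0 matches to the 7 motifs searched. Such letters were also found before relatives: the Creb3l2 window held TGACG 196 to 192 bases before its start, and the Creb3 window held CCACG 3 times. These matches describe letters only.

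The other 2 measured relatives did not pass the threshold either. Creb3l1 (OASIS), a factor known for driving collagen secretion in bone and fibroblasts, measured 4.91, 4.22 and 4.53 against 4.43, 4.16, 4.41 and 4.41 at 3 weeks (wild type first), and 4.88, 4.30 and 3.87 against 4.42, 4.60 and 4.42 at 9 weeks. The wild-type livers were the more scattered at both ages, and the Sel1L-deficient values lay inside or just below their range. Creb3l1 averaged 4.428 over the 13 livers, not far above the array medians (3.725 to 3.811), where a difference can be understated. Creb3l2 (BBF2H7), which serves secretion in cartilage, was 6.57, 6.01 and 5.97 against 6.12, 6.08, 6.09 and 5.92 at 3 weeks, and 6.42, 6.14 and 6.21 against 5.93, 6.72 and 6.48 at 9 weeks. The groups of Creb3l2 overlapped at both ages. For both genes the log2 differences lay between -0.20 and 0.13, with adjusted p between 0.858 and 0.905. The 95% intervals ran from -0.67 to 0.27 and from -0.37 to 0.64 for Creb3l1, and from -0.54 to 0.28 and from -0.32 to 0.56 for Creb3l2, at 3 and 9 weeks. The promoter table held no entry for Creb3l1.

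Of the 4 secreted targets, Apoa4 differed most between Sel1L-deficient livers of 3 and 9 weeks. ApoA-IV, a lipoprotein component of intestine and liver, helps to assemble triglyceride-rich particles and to activate lipoprotein lipase. Its 3-week values were 10.86, 10.32 and 10.93 for wild type and 10.97, 10.48, 9.44 and 9.46 for Sel1L-deficient livers. Replicates 1 and 2 lay inside or above the wild-type range and replicates 3 and 4, which also had the least Sel1l (7.20 and 7.10), deviated from the wild-type mean by -1.26 and -1.24. The log2 difference was -0.61 ± 0.37 (SE; 95% interval -1.42 to 0.20, adjusted p = 0.757). Without these replicates it was 0.03 (adjusted p = 0.997). They hold the lowest Apoa4 values, so leaving them out raises the difference by construction. The choice was made after the data were seen, here and wherever these replicates are left out below.

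In 9-week livers Apoa4 stood at 10.84, 10.18 and 10.95 for wild type and 11.89, 11.32 and 11.91 for Sel1L-deficient. Every Sel1L-deficient liver exceeded every wild-type liver, as 9.89% of all features did in this comparison. The log2 difference of 1.05 ± 0.39 (SE; 2.07-fold, 95% interval 0.19 to 1.91) did not pass the threshold (adjusted p = 0.244). Within Sel1L-deficient livers the 9-week values were all above the 3-week values, as for 4.67% of features, a log2 difference of 1.62 ± 0.37 (3.07-fold, adjusted p = 0.131), whereas wild type differed by -0.04 ± 0.39 between ages (adjusted p = 0.98). The change of the genotype difference between ages was 1.66 ± 0.54 (95% interval 0.48 to 2.84, unadjusted p = 0.01, adjusted p = 0.371). Without 3-week Sel1L-deficient replicates 3 and 4, the age difference of Apoa4 in Sel1L-deficient liver was 0.98 (adjusted p = 0.382) and the change of the genotype difference was 1.02 (adjusted p = 0.669). Leaving out the lowest 3-week values lowers both by construction. A second feature of Apoa4 correlated with the first at 0.96 over the 13 livers and gave 1.26 ± 0.39 at 9 weeks (2.39-fold, adjusted p = 0.15) and 1.80 ± 0.36 between ages in Sel1L-deficient liver (3.48-fold, adjusted p = 0.0967). Within plate columns 5 and 7 the 9-week difference was 1.72 and 0.43, where column 5 held only 1 wild-type liver and column 7 only 1 deficient liver. Of 7 measured markers of enterocytes, the other main source of ApoA-IV, 5 lay below the array medians, Fabp2 and Anpep being the exceptions. Their average was 4.13 to 4.34 at 9 weeks and overlapped between genotypes.

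Apoa5, next to Apoa4 on chromosome 9 with 0 protein-coding genes between them in the RefSeq order, overlapped between genotypes at 9 weeks. ApoA-V is a low-abundance plasma protein that promotes triglyceride hydrolysis. The 3-week wild-type livers had Apoa5 at 11.15, 11.11 and 11.10, against 10.87, 11.01, 10.63 and 10.88 in their Sel1L-deficient counterparts. Each Sel1L-deficient liver was below each wild-type liver, as were 3.53% of all features. The wild-type values lay close together (SD 0.03, n = 3), and the log2 difference of -0.27 ± 0.11 (SE; 0.828-fold, 95% interval -0.52 to -0.02) had an unadjusted p of 0.0355 and an adjusted p of 0.649. The 9-week livers had 10.95, 10.83 and 11.26 in wild type and overlapped with the deficient livers at 10.79, 10.97 and 10.95 (-0.11 ± 0.12, adjusted p = 0.768).

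The stretches before both apolipoprotein genes are shown because the neighbours differed in range across these livers: 2.47 log2 units for Apoa4 and 0.63 for Apoa5. Both are RefSeq windows of 250 bases on the plus strand of GRCm38.p6, chr9:46240594-46240843 for Apoa4 and chr9:46268358-46268607 for the first start site of Apoa5, with motif matches in capitals.
Apoa4: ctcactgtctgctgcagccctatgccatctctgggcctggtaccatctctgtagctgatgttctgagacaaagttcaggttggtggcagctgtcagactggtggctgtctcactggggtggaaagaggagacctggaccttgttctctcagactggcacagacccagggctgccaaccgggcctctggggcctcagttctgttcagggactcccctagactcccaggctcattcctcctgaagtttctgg
Apoa5: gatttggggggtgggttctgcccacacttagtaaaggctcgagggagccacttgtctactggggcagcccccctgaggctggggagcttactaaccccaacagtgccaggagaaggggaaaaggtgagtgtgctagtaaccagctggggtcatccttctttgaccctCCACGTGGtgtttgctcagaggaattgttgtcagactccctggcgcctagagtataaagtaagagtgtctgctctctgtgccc
The Apoa5 window held CCACG on both strands, 83 to 79 and 80 to 76 bases before the start, overlapping the E-box palindrome CACGTG at 82 to 77. CACGTG was in 6.02% of the 32851 windows. The Apoa4 window matched none of the 7 motifs searched. Besides the 4 named above these were the full CRE, TGACGTCA, in 1.55% of windows, the C/EBP-type site, TTGCNNAA, in 9.56%, and the full ER stress response element, in 0.113%. Here too the matches describe letters only.

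Apcs, which encodes serum amyloid P component, separated 9-week wild type from the other groups. Serum amyloid P is a pentraxin, a ring-shaped plasma protein that binds amyloid and dead cells, and it is the main acute phase pentraxin of the mouse. The 9-week wild-type livers had Apcs at 8.23, 7.45 and 7.22, against 9.38, 9.52 and 9.43 in Sel1L-deficient ones. The Sel1L-deficient livers were tightly grouped and all above wild type, as for 9.89% of all features. Apcs rose by 1.81 ± 0.26 on the log2 scale (SE; 3.5-fold, 95% interval 2.36 to 5.21, adjusted p = 0.0123), the 64th smallest p of all features. The call was lost without Sel1L-deficient replicate 2 (adjusted p = 0.0606), Sel1L-deficient replicate 3 (0.0593) or wild-type replicate 2 (0.0543) at 9 weeks, and when only the 6 livers of that age were fitted (0.149). The difference was 1.60 to 2.11 over the 15 alternatives tested and 1.96 and 1.79 within plate columns 5 and 7, which held 1 wild-type and 1 Sel1L-deficient liver respectively.

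At 3 weeks Apcs did not separate the genotypes. The wild-type values of 9.92, 9.36 and 9.96 overlapped with 10.28, 9.66, 9.88 and 9.57 in Sel1L-deficient livers (0.10 ± 0.24, SE; 95% interval -0.43 to 0.64, adjusted p = 0.949). Between 3 and 9 weeks Apcs fell in wild type, to a level 4.33-fold lower (-2.11 ± 0.26 on the log2 scale, adjusted p = 0.00278), one of 1.12% of features that fell. When only the 6 wild-type livers were fitted the adjusted p was 0.0537. In Sel1L-deficient livers all 9-week values were also below all 3-week values, as for 4.69% of features, but by -0.41 ± 0.24 (0.754-fold, adjusted p = 0.65). The change of the genotype difference between ages was 1.71 ± 0.36 (95% interval 0.92 to 2.49, unadjusted p = 0.000541). It did not pass the threshold over all features (adjusted p = 0.197), at which 0 features were called and 9.73% had an unadjusted p under 0.05. By mean level, 9-week wild type was lowest (7.63 ± 0.53, SD, n = 3) and stood 1.81 below 9-week Sel1L-deficient liver (9.44 ± 0.07, n = 3). The next steps, to 3-week wild type (9.75 ± 0.34, n = 3) and to 3-week Sel1L-deficient liver (9.85 ± 0.31, n = 4), were 0.31 and 0.10 and within 1 SD.

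Crp, which encodes C-reactive protein and lies beside Apcs on chromosome 1 with 0 protein-coding genes between them, did not pass the threshold in any comparison. C-reactive protein is a major acute phase reactant in humans and a minor one in mice. Crp was 9.41, 9.52 and 9.60 against 9.71, 9.68, 9.56 and 9.56 at 3 weeks and 9.60, 9.58 and 9.89 against 9.59, 9.32 and 9.53 at 9 weeks, wild type first. The groups overlapped at both ages and all 13 values lay within 0.57 log2 units, against 3.06 for Apcs. The log2 differences were 0.12 ± 0.10 (SE; 95% interval -0.10 to 0.34, adjusted p = 0.826) and -0.21 ± 0.11 (-0.45 to 0.02, adjusted p = 0.419). Their change between ages was -0.33 ± 0.15, of opposite sign to that of Apcs (unadjusted p = 0.0457, adjusted p = 0.502).

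The stretches before the pentraxin genes are shown because Apcs changed and its neighbour Crp did not pass the threshold. Both are RefSeq windows of 250 bases of GRCm38.p6, chr1:172895055-172895304 on the minus strand for Apcs and chr1:172697806-172698055 on the plus strand for Crp.
Apcs: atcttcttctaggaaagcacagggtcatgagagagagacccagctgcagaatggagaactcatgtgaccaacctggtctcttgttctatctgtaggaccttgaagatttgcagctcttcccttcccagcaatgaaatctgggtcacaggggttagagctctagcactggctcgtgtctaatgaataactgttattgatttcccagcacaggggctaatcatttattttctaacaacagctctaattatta
Crp: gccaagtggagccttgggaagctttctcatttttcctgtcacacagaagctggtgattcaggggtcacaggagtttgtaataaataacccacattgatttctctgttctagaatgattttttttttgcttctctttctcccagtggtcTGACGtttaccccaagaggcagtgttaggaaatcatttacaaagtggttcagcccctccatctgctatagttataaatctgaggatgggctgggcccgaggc
Crp held 1 TGACG, 102 to 98 bases before the start, in capitals. Apcs matched none of the 7 motifs in this window. Matches and their absence describe letters only, and binding was not tested.

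**Figure D2:**
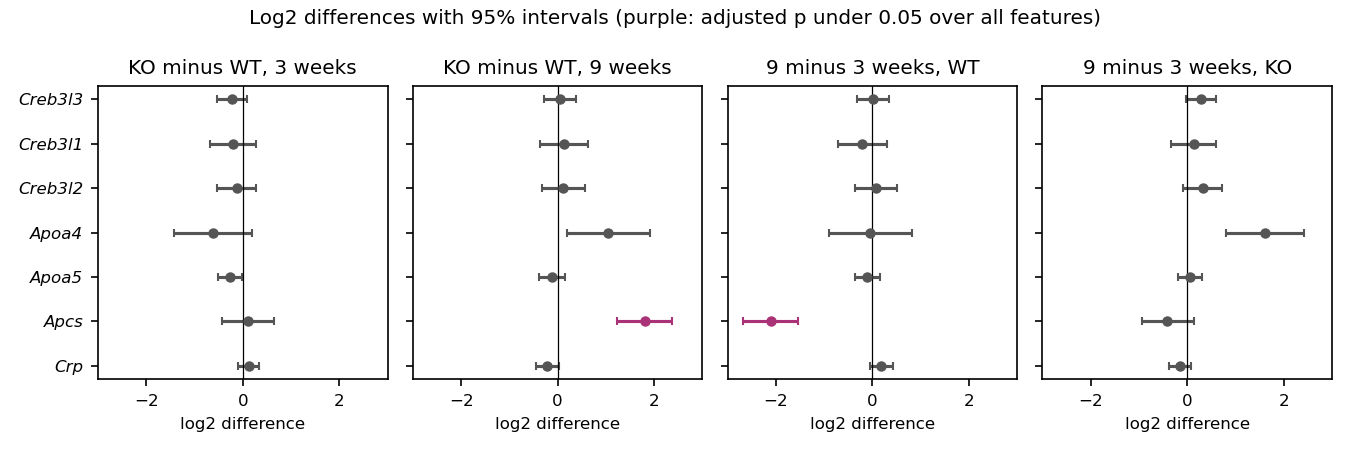
Log2 differences (horizontal axes) of the 7 measured genes in both genotype comparisons and both age comparisons, with 95% intervals from the fit over 13 livers. Purple marks an adjusted p under 0.05, which Apcs reached at 9 weeks (1.81) and between ages in wild type (-2.11), and the Apoa4 intervals are the widest.

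Considered together, 5 of the 7 genes lay below 0 at 3 weeks (median log2 difference -0.20) and 5 of the 7 above 0 at 9 weeks (median 0.12), where the medians over all features were 0.004 and -0.007. An unadjusted p under 0.05 was reached by 1 of the 7 at 3 weeks and 2 of the 7 at 9 weeks, beside 7.41% and 13.9% of all features. Between ages in wild type 1 of the 7 fell and 0 rose (1.89% of features passed in either direction), and in Sel1L-deficient livers 0 passed (0.155% of features). The genotype comparisons and the age comparisons share livers, so these counts are not independent.

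Within groups, the levels of some of these genes varied together from liver to liver. After subtracting group means, Creb3l3 correlated with Apoa5 at 0.80 and with Apoa4 at 0.54, but with Apcs at -0.10 and with Crp at 0.47, over 13 livers that share arrays and processing. Over the livers as they stand these values were 0.71, 0.67, -0.28 and 0.12. Apoa4 correlated with Sel1l at 0.89 within groups and 0.23 over all livers, and with Fgf21 at 0.65 and 0.64. The 0.89 rests largely on the 3-week Sel1L-deficient livers, with SDs of 0.62 for Sel1l and 0.76 for Apoa4. In the other groups the SDs were 0.04 to 0.18 for Sel1l and 0.33 to 0.42 for Apoa4. Apcs and Crp correlated at -0.25 within groups and -0.43 over all livers. The relative Creb3l1 correlated with Apcs at 0.82 within groups and 0.37 over all livers, and with Crp at -0.65 and -0.66. These are descriptions of few points, without a test.

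Fgf21, the fasting hormone gene named with CREBH in the title, stood in 3-week livers at 7.21, 7.19 and 7.09 (wild type) and at 7.96, 9.30, 6.14 and 5.96 (Sel1L-deficient). Replicates 1 and 2 were above every wild-type liver and replicates 3 and 4 below, and for Apoa4 too replicates 3 and 4 were below. Cidec, a lipid droplet protein gene that CREBH also activates, deviated from the wild-type mean of 3 weeks by -0.36, -0.73, -1.70 and -1.37 in replicates 1 to 4. At 9 weeks the same deviations were 0.63, 1.64 and 2.23 for Cidec and 1.24, 0.67 and 1.25 for Apoa4. The Cidec difference was -1.04 ± 0.45 at the younger age (SE; adjusted p = 0.655) and 1.50 ± 0.49 at the older (adjusted p = 0.174). Fgf21 differed by 0.18 ± 0.66 and 2.96 ± 0.71 (adjusted p = 0.97 and 0.0695). Without Sel1L-deficient replicates 3 and 4, which hold its lowest 3-week values, the 3-week difference of Fgf21 was 1.47 and did not pass the threshold. That rise follows from leaving these values out.

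**Figure D3:**
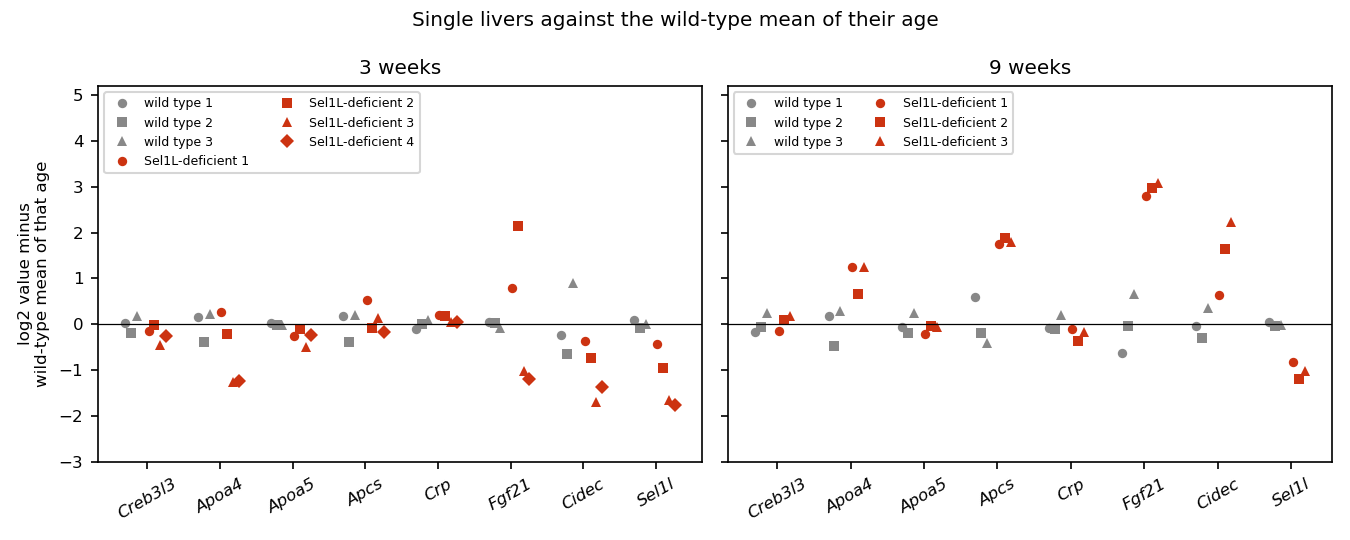
Log2 value of single livers minus the wild-type mean of the same age (vertical axis) for CREBH, its secreted targets, Fgf21, Cidec and Sel1l. Grey marks are wild-type and red marks Sel1L-deficient livers, with a symbol per replicate number. At 3 weeks replicates 3 and 4 are the lowest for Apoa4 (-1.26 and -1.24) and Sel1l, and at 9 weeks all 3 Sel1L-deficient livers lie together for Apcs (1.75, 1.88 and 1.79).

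Genes that act on the CREBH protein were then examined. Of 9 measured genes for its escort from ER to Golgi and its cleavage, 2 rose at 9 weeks and 0 fell. For this and the following lists, 1.03% of all features rose at 9 weeks and 1.52% passed in either direction. Sec23a, a coat component of the vesicles that leave the ER, rose 1.81-fold (0.86 ± 0.15, SE, adjusted p = 0.0228), and Golga2, a Golgi matrix protein gene, rose 1.52-fold (0.60 ± 0.12, adjusted p = 0.0362). At 3 weeks 7 of the 9 lay above 0, with a median of 0.22 and 0 past the threshold, beside 0% of all features. Of 17 partners and regulators, 1 rose at 9 weeks, Syvn1, which encodes Hrd1 (3.24-fold, adjusted p = 0.0154), while 13 lay below 0 (median -0.12). The 13 include Sel1l (-1.02), which was lowered by design. The 4 further bZIP factors of the ER membrane included Atf6, a sensor that is cut by the same proteases and which rose 1.46-fold at 9 weeks (0.55 ± 0.12, adjusted p = 0.0495). For comparison, 5 of 13 reporter genes of XBP1 and ATF6 rose at 9 weeks. The 4 with the smallest p were Hspa5, the main ER chaperone (3.1-fold, adjusted p = 0.0126), Creld2 (5.35-fold, adjusted p = 0.0177), Manf (3.4-fold, adjusted p = 0.0284) and Derl3, an ER-associated degradation gene (17.9-fold, adjusted p = 0.0289). Of these 13, 12 lay above 0 at each age, with medians of 1.17 and 1.07.

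Other lipid genes listed as CREBH targets were examined next. Of 19 measured lipid and glucose targets outside the described genes, 0 passed at either age. Of all features, 0% passed at 3 weeks and 1.52% at 9 weeks, so this count is near that share. At 3 weeks 15 of the 19 lay below 0 (median -0.17), and without Sel1L-deficient replicates 3 and 4 it was 11 (median -0.04). At 9 weeks 9 lay above and 10 below 0 (median -0.01). The 15 other apolipoprotein genes and their partners were all below 0 at 9 weeks, though with 0 past the threshold and a median of only -0.17, and Apoa4 stood on the other side. After quantile normalization between arrays 12 of the 15 were below 0. The smallest p there belonged to Clu, a lipoprotein chaperone gene (-0.31 ± 0.08, SE, adjusted p = 0.071), and Mttp, which loads lipid onto ApoB, differed by -0.44 ± 0.13 in 3-week livers (adjusted p = 0.479) and -0.31 ± 0.14 in 9-week livers (adjusted p = 0.36).

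The lipoprotein lipase system, on which ApoA-IV and ApoA-V act, had 2 of 12 measured members that rose at 9 weeks, beside 1.03% of all features. Vldlr, a receptor for triglyceride-rich particles, went from 4.07 ± 0.24 to 5.46 ± 0.22 (SD, n = 3 each; 2.63-fold, adjusted p = 0.0161). Lpl, the lipase itself, went from 5.96 ± 0.16 to 7.09 ± 0.35 (2.2-fold, adjusted p = 0.0378). Lpl also fell between ages in wild type, 6.11-fold (adjusted p = 0.000559), and in Sel1L-deficient livers, 3.15-fold (adjusted p = 0.0196). The median of the 12 at 9 weeks was 0.08.

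The other acute phase genes lay mostly on the other side of 0 from Apcs at 9 weeks. Of 21 measured, 19 lay below 0 in Sel1L-deficient liver (median -0.25), and Apcs was 1.81 above. Of the 21, 0 passed the threshold, beside 1.52% of all features in either direction. After quantile normalization it was 17 of 21 (median -0.18). At 3 weeks 16 of the 21 lay above 0 (median 0.12). Saa4, a constitutive serum amyloid A gene, had a difference of 0.57 ± 0.22 (SE, 3 weeks, adjusted p = 0.63) and of -0.77 ± 0.24 (9 weeks, adjusted p = 0.152), and Fgg, a fibrinogen chain gene, was 0.07 ± 0.09 and -0.32 ± 0.10 (adjusted p = 0.896 and 0.144). Among 14 genes of the interleukin and C/EBP signals that control acute phase genes, Il1rap, a co-receptor for interleukin-1, fell 1.51-fold at 9 weeks (-0.59 ± 0.12, adjusted p = 0.0396), and 11 lay below 0 (median -0.15). Of 11 collagen and matrix genes tied to the relative Creb3l1, 1 rose at 9 weeks, again Sec23a, beside 1.03% of all features. At 3 weeks 9 of the 11 lay below 0 (median -0.29), and without Sel1L-deficient replicates 3 and 4 it was 5 (median 0.01). The 9-week calls of these lists covered 12 genes, and each of the 12 kept its direction in all 15 settings, with Hspa5 at 1.46 to 1.95, Syvn1 at 1.44 to 2.06, Sec23a at 0.76 to 1.02 and Vldlr at 1.26 to 1.53 on the log2 scale. Of the 12, 0 passed the threshold without Sel1L-deficient replicate 2, Sel1L-deficient replicate 3 or wild-type replicate 2, with 2, 5 and 11 left without wild-type replicate 1, wild-type replicate 3 and Sel1L-deficient replicate 1.

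**Figure D4:**
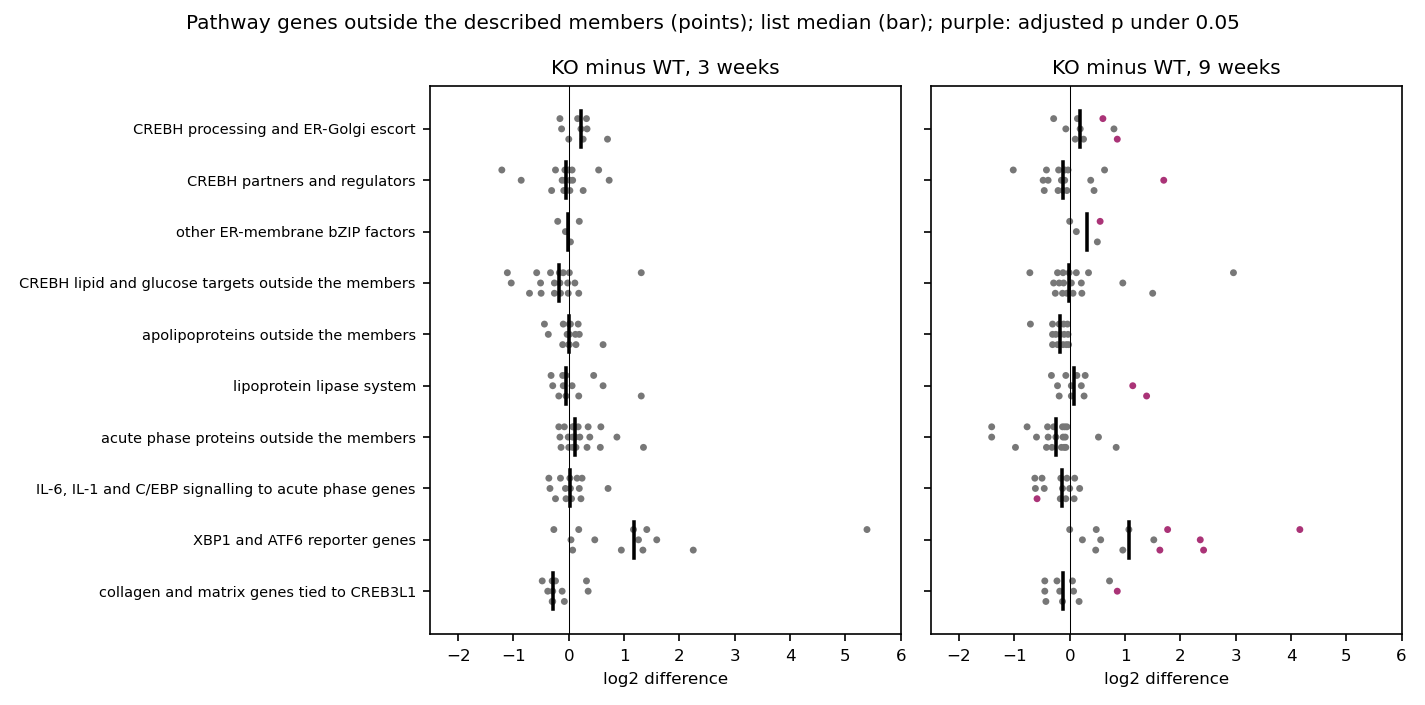
Log2 differences between Sel1L-deficient and wild-type liver (horizontal axes) of the measured genes of 10 pathway lists at 3 and 9 weeks. Points are genes, vertical bars list medians, and purple an adjusted p under 0.05. The reporter genes of XBP1 and ATF6 have medians of 1.17 and 1.07, and the other lists lie between -0.29 and 0.31.

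By pattern over the 13 livers, among 10578 genes above the array medians, Creb3l3 was nearest to Slc25a47 (Pearson r = 0.90), Polr2a (0.90) and Decr1 (0.88). Creb3l1 was nearest to Gpx3, Tpm1 and Olfm1 (0.89, 0.87 and 0.87), and Creb3l2 to Tti1, Naaa and Hamp (0.90, 0.88 and 0.85). Apoa4 was nearest to Sel1l3 (0.95), Zfand2a (0.92) and Osbpl3 (0.92), of which Osbpl3 had means of 5.30, 4.82, 4.92 and 6.40 in 3-week wild type, 3-week Sel1L-deficient, 9-week wild type and 9-week Sel1L-deficient livers. Apoa5 was nearest to Mir328, Arap3 and Acaa1b (0.92, 0.85 and 0.85) and Crp to Slc10a5, Zbtb38 and Bcr (0.86, 0.85 and 0.83). Apcs was nearest to Rpl15, Rpl36a and Eif3h (0.96 each), of which Rpl36a had means of 9.43, 9.42, 8.94 and 9.29 in the same order. These correlations share the same livers and group differences and carry no test.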

How the data were processed

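RNA of 13 livers was hybridised to Affymetrix whole-transcript arrays; RNA had an integrity number above 8, per the labels' protocols. The authors deposited log2 expression values made by RMA, per the submitters' processing notes, which background-corrects, quantile-normalizes and summarises probes, so shifts common to most genes are largely removed. Its version and the array build are not given in the sources used here. There are no detection calls, and a difference reaching levels near the array medians can be understated. Features (35556) were named from the platform annotation: 21218 had 1 symbol, 1881 several, 12457 none, and 21185 of the 21218 matched RefSeq.

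Group means were fitted over all 13 livers with limma 3.58.1 (lmFit, eBayes, two-sided; R 4.3.3), with Benjamini-Hochberg adjustment over all features and a threshold of 0.05. The fit was tested on simulated data. Groups came from the sample titles, replicate numbers too, and plate columns 5 and 7 from the array descriptions. The titles' replicate 3 of both 9-week groups carries another number in its description. The number of arrays limits the precision, and each p-value sets a difference against the spread between livers within groups.

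The genes, 10 pathway lists and 9 marker lists (231 genes, 203 measured) were chosen with earlier results of these data known, so they lend no independent support, and some lists share genes. Text names all 8 genes, Sel1l and Fgf21, from each pathway list up to 4 called genes (otherwise up to 2 with the smallest p), and for each gene the 3 highest correlations over livers. The marker genes named, the second Apoa4 feature and the feature of Gba2 and Creb3 were named after their values were seen. Bmal1 was read as Arntl. Promoter windows come from RefSeq (GRCm38.p6). Alternatives are described at the end.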

Additional observations from a re-analysis of the deposited data

Results flagged for a closer look

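Creb3l1 in 3-week Sel1L-deficient livers had 1 liver far from the others, with a gap of 0.946 of the group's range, past the 95% limit for 4 values. Replicate 2 stood at 4.16 and the other livers at 4.43, 4.41 and 4.41. Chance gives such a case in about 5% of sets of 4 values. This was 1 of 9 sets examined, all from the same 4 livers, so they are not independent.

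A feature outside the described values carried a difference above wild type at both ages. It is annotated to both Gba2, a glucosylceramidase gene, and Creb3, and can be assigned to neither here. Its 3-week values were 7.78, 7.59 and 7.99 for wild type and 8.40, 8.69, 8.64 and 8.51 for Sel1L-deficient livers, a log2 difference of 0.77 ± 0.15 (SE; 1.71-fold, adjusted p = 0.391). At 9 weeks it was 7.58, 7.68 and 7.92 against 8.59, 9.11 and 9.11, and rose by 1.21 ± 0.16 (2.31-fold, adjusted p = 0.0104). The groups did not overlap at either age, where at 9 weeks 9.89% of all features lay wholly above wild type. The 9-week call was kept in 11 of 14 alternatives and lost without Sel1L-deficient replicate 2 or 3 and when only the compared groups were fitted (adjusted p up to 0.149). A feature of Gba2 alone differed by 0.26 ± 0.15 and 0.14 ± 0.16 (adjusted p = 0.753 and 0.774).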

How the results depend on the processing

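The count of called genes among the 7 kept its value in 81 of 86 combinations of comparison and alternative. It went from 1 to 0 at 9 weeks and in wild-type ageing when only the compared groups were fitted, and at 9 weeks ranged from 0 to 1 with 1 liver left out. Of 1167 single-gene values, 999 kept direction and side of the threshold. The 12 list genes called at 9 weeks numbered 6 with plate column as a block and 0 with only the compared groups fitted, while each kept its direction, as with Creld2 at 2.09 to 2.98, Derl3 at 3.65 to 4.93 and Lpl at 1.00 to 1.33.

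All 30 sign changes were in differences that never passed the threshold (adjusted p 0.485 to 1). Leaving out 1 liver gave ranges of -0.09 to 0.21 for Apcs (3 weeks), -0.20 to 0.01 for Apoa5 (9 weeks), -0.24 to 0.06 and -0.05 to 0.34 for Creb3l2 at 3 and 9 weeks, -0.10 to 0.40 for Creb3l1 (9 weeks), -0.03 to 0.17 for Creb3l3 (9 weeks) and -0.48 to 0.64 for Fgf21 (3 weeks). For wild-type ageing it gave -0.23 to 0.19 (Apoa4), -0.47 to 0.03 (Creb3l1), -0.03 to 0.27 (Creb3l2) and -0.10 to 0.10 (Creb3l3), and for Sel1L-deficient ageing -0.02 to 0.11 (Apoa5) and -0.11 to 0.32 (Sel1l). Wild-type ageing was 0.15 for the second Apoa4 feature and -0.00 for Creb3l3 with plate column as a random block. Without Sel1L-deficient replicates 3 and 4 at 3 weeks, an alternative chosen after seeing the data, values were 1.47 (Fgf21, 3 weeks), 0.27 (Fgf21, Sel1L-deficient ageing), 0.03 (Apoa4, 3 weeks), -0.04 (Apoa5, ageing), -0.43 (Sel1l, ageing) and -0.31 (Sel1l, change between ages). Fgf21 at 9 weeks passed the threshold with dim features left out (adjusted p = 0.0367) or with 1-symbol features alone (0.0309). The causes were not tested.

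Over all features, livers with the same replicate number did not deviate together (r from -0.01 to 0.07). These correlations cannot exclude a pairing that acts on few features. With the number as a block the count of called genes among the 7 was unchanged in all 5 comparisons, all features called at 9 weeks went from 539 to 184, the 12 list genes to 6, and ageing of Sel1l in Sel1L-deficient liver became -0.11.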

Other observations

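Some markers of liver cells other than hepatocytes fell from 3 to 9 weeks in wild type. Of 10 sinusoidal endothelial markers 3 fell and 0 rose (median -0.28), with Lyve1, a hyaluronan receptor gene, at 7.96 ± 0.22 and 6.82 ± 0.19 (SD, n = 3 each; 2.2-fold lower, adjusted p = 0.00438). All 11 Kupffer cell markers lay below 0 (median -0.30), of which Marco, a scavenger receptor gene, fell 4.27-fold (adjusted p = 0.0299). Of 12 stellate markers 1 fell, Reln (1.65-fold, adjusted p = 0.0315), and of 5 erythroid markers 1, Slc4a1, the red cell anion exchanger gene (3.73-fold, adjusted p = 0.0197). In Sel1L-deficient livers 0 markers of these 4 lists passed between the same ages. Of all features, 1.89% passed between ages in wild type (1.12% fell) and only 0.155% in Sel1L-deficient livers. The change of the genotype difference between ages passed for 0 features, so ageing of these markers is not shown to differ between genotypes.

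Between genotypes at 3 weeks the median log2 differences were -0.35 for Kupffer, -0.24 for stellate, -0.24 for endothelial and -0.41 for erythroid markers, and 0.06, 0.07, -0.03 and -0.22 at 9 weeks. Without Sel1L-deficient replicates 3 and 4 the 3-week medians were -0.39, -0.01, -0.12 and -0.38 in the same order. Hepatocyte markers had 0.06 and -0.06, bile duct markers -0.05 and -0.09, monocyte and neutrophil markers -0.18 and -0.18, lymphocyte markers -0.06 and -0.18, and enterocyte markers 0.00 and -0.07.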
